A study of Mus musculus with 35 samples.

Results

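The genes described here are 9 complement components and receptors, C1qa, C1qb, C1qc, C3, C3ar1, C5ar1, Itgam, Itgb2 and Cd93, out of 53465 genes in the table of bulk libraries. They were taken by name, with earlier results of these data known, and all 9 were found in the bulk and in the single-cell tables. Bulk RNA-seq covered 4 populations of wild-type E14.5 mouse brain, namely microglia (libraries Mi-340, Mi-343 and Mi-346), endothelial cells (Ec), mural cells (Mu) and neural cells (N), each with 3 libraries under these numbers, and a number was read as 1 brain. Single-cell RNA-seq by mCEL-Seq2, which tags each transcript molecule before amplification, covered wild-type wells on 3 plates, where each well carries its sort gate, and wells of Mof Knockout brains at the same stage on another 3 plates, where no gate is given. The labels give no strain, no sex and neither the Cre driver nor the stage of the Mof deletion, and Mof is the older name of Kat8, a histone acetyltransferase.

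Sorting fixed part of what can be asked. Bulk microglia were taken as CD45 medium and CD11b positive cells, endothelial cells by PECAM1 and CD102, mural cells by PDGFRβ, both without CD45, CD41 and CD11b, and neural cells as negative for all of these. CD11b is the product of Itgam, so the level of Itgam between bulk populations repeats the gate and is given as a description with no test. The counts below therefore run over the other 8 members. ITGB2 is the partner chain of CD11b on the cell surface. For the single-cell microglia the well labels read low for PDGFRβ and PECAM1, positive for CD41 and medium for CD45, and do not name CD11b. The study's text refers to CD11b and CD45 staining for this sort, so Itgam is a description with no test in the single cells too. Libraries of neural cells were made with a different RNA kit and library kit from the other 3 populations, so kit and neural population cannot be told apart.

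Complement is a cascade of plasma and tissue proteins that marks targets for removal. C1q, built from the A, B and C chains encoded by C1qa, C1qb and C1qc, recognises its targets and starts the classical pathway, which converges with the other pathways on the cleavage of C3. The fragments C3a and C5a act on the receptors C3AR1 and C5AR1, while surface-bound C3 fragments are read by complement receptor 3, the pair of CD11b and ITGB2. In the developing brain C1q and C3 are known for tagging synapses that microglia then engulf through complement receptor 3. CD93 was first described as a C1q receptor and is known mainly as a glycoprotein of angiogenic endothelium.

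The 3 C1q genes lie next to each other on the minus strand, with C1qb at chr4:136880129-136886187, C1qc at chr4:136889804-136893065 and C1qa at chr4:136895917-136898803 (GRCm38, GENCODE vM21), a stretch of 18.7 kb. The other members are spread over 5 chromosomes, with C3 at chr17:57203970-57228136, C3ar1 at chr6:122847138-122856161, C5ar1 at chr7:16246743-16259540, Itgam at chr7:128062640-128118491, Itgb2 at chr10:77530252-77565708 and Cd93 at chr2:148436640-148443563. Because C1qb and C1qc were among the most abundant members in microglia and moved together over cells, and C3 stood far below them in the same cells, their promoters are shown. The sequences come from RefSeq (GRCm38.p6), run 5′ to 3′ on the gene's own strand from 250 bases before to 50 bases after the start, and were found for 6 of the 9 members. Capitals mark matches to GAGGAA, the core that the myeloid factor PU.1 recognises (TTCCTC on the other strand), and to TTGCNNAA, a C/EBP core, searched on both strands. The first is C1qb at chr4:136886151-136886450, the second C1qc at chr4:136892865-136893164 and the third C3 at chr17:57228087-57228386, all on the minus strand.

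C1qb: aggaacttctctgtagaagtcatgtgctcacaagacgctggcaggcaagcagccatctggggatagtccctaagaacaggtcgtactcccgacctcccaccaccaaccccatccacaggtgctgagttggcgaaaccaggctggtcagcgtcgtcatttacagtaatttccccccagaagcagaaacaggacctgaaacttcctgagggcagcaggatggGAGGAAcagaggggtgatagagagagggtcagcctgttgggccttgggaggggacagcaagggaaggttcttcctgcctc

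C1qc: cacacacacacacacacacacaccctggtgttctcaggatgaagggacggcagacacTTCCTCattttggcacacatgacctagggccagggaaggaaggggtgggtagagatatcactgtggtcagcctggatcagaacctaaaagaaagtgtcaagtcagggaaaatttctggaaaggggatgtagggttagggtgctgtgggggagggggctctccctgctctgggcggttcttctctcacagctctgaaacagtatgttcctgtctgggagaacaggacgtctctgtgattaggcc

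C3: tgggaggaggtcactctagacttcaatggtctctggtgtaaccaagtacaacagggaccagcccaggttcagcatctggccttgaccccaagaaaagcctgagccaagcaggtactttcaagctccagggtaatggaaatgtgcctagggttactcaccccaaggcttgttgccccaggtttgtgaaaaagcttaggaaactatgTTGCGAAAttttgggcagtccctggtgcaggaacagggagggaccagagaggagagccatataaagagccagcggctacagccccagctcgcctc

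C1qb carried 1 GAGGAA that began 30 bases before the start, and C1qc carried 1 on the other strand that began 193 bases before it. C3 carried no GAGGAA and 1 TTGCNNAA. Among all 6 promoters 3 held GAGGAA, the third being that of Itgam with matches 84 and 15 bases before and 32 bases after its start, while none was found in those of C3ar1 and C5ar1. GAGGAA occurs in 28.3% of the 32851 mouse promoters of the same length and TTGCNNAA in 10.8%. These are matches of letters and say nothing of binding.

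In the bulk libraries the C1q chains were read almost only in microglia. The values are normalized counts, that is reads on a gene after the authors' scaling of each library. C1qa, the A chain, stood at 24762, 21778 and 26814 in the microglia libraries Mi-340, Mi-343 and Mi-346. C1qb, the B chain, stood at 61822, 61671 and 68854. C1qc, the C chain, stood at 47104, 47442 and 45316. The 3 brains were alike, with SDs of 2532, 4104 and 1143 around means of 24451, 64116 and 46621 (n = 3 each). Outside microglia the same genes were all but missing. No mural library had a read on any chain, and the 9 libraries of the other populations held 12 C1q reads in all, at most 7 in 1 library, against 334834 in the microglia libraries. Microglia were therefore at least 29137-fold higher than mural cells in C1qa, at least 76403-fold higher in C1qb and at least 55555-fold higher in C1qc, with the mural level set to 3 reads over the group.

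**Figure D1:**
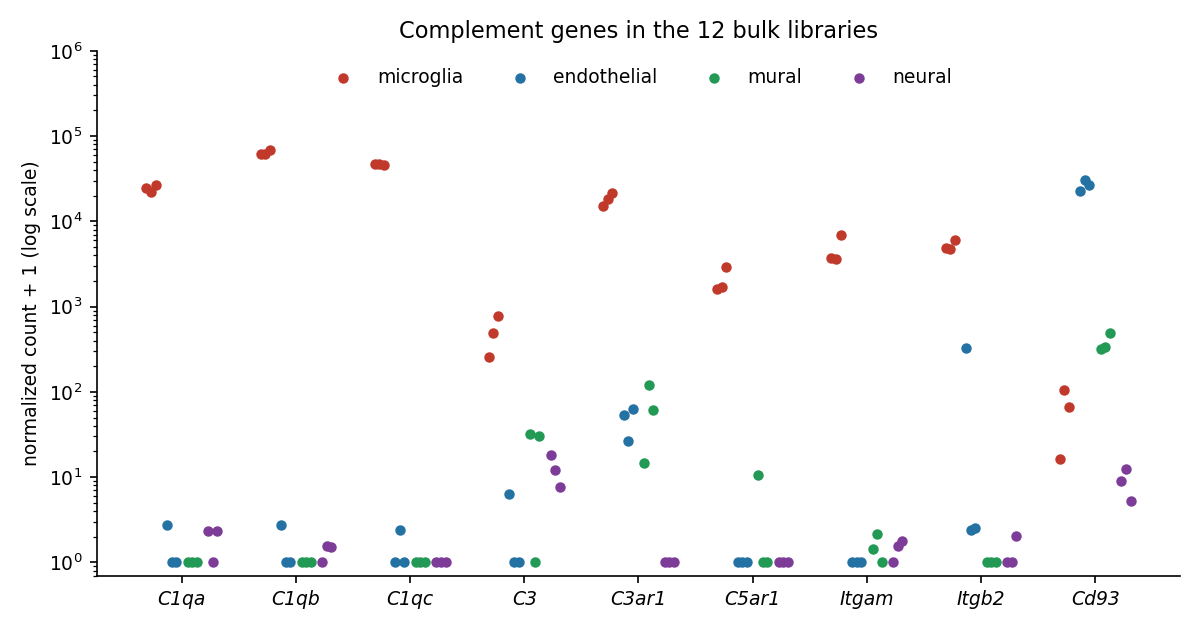
Normalized counts of the 9 members in each of the 12 bulk libraries, on a log axis of the normalized count plus 1, with 1 point per library and the populations side by side. The microglia points stand above all others for every member but Cd93, whose endothelial points lie between 22941 and 30264.

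The receptors for the C3 and C5 fragments were also high in microglia. C3ar1, the receptor for C3a, stood at 15243, 18458 and 21693 in microglia against 25.6 to 61.8 in endothelial libraries and 13.6 to 119 in mural libraries, and no neural library had a read on it. Its mean was 394-fold higher than in endothelial cells and 287-fold higher than in mural cells, or 495-fold without Mu-343. C5ar1, the receptor for C5a, stood at 1593, 1678 and 2886 in microglia. Only 1 of the 9 other libraries had any read on it, Mu-340 at 9.61, and microglia were at least 1310-fold higher than endothelial cells and at least 2859-fold higher than neural cells.

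The chains of complement receptor 3 were present together. Itgb2, the β chain, stood at 4819, 4704 and 6097 in microglia, and Itgam, the α chain used for sorting, at 3741, 3614 and 6924. Mural libraries had no read on Itgb2, while endothelial libraries split, with 328 in Ec-340 against 1.42 and 1.51 in the others. Those are 185 reads against 1 and 1, so the endothelial mean of Itgb2 rests on 1 library. In that library Itgam was at 0, and of the microglia markers Csf1r stood at 12.4, Fcer1g at 110 and Tmem119 at 42.5, while the neutrophil marker S100a8 stood at 37.2. The endothelial sort was gated against CD45 and CD11b, and how far other cells were kept out of this library was not tested. The part of these markers in the Itgb2 value was not tested.

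C3 was the least abundant member with a microglial maximum and the most uneven. It stood at 253, 494.5 and 769 in the microglia libraries (506 ± 258, SD, n = 3), with 5.32, 0 and 0 in endothelial cells, 31.5, 0 and 29.1 in mural cells and 17.4, 11.1 and 6.61 in neural cells. The microglia libraries stood above all others, although the gap was far smaller than for C1q: microglia were 25.04-fold above mural cells and 43.3-fold above neural cells. The mural range overlapped the endothelial and the neural range, while the endothelial range lay below the neural one. Mi-346 was the highest of the microglia libraries in C1qa, C1qb, C3, C3ar1, C5ar1, Itgam and Itgb2, and the lowest in C1qc. The same library had a summed level of 6 monocyte and neutrophil markers of 10111 against 3365 and 3052, with Ccr2 at 4333 against 1113 and 1067 and Plac8 at 2731 against 668 and 385. Of the same list S100a9 went the other way, at 162 against 379 and 243. The summed level of 10 microglia markers ran only from 363877 to 379134, and that of 7 border macrophage markers from 15428 to 19619. Single microglia markers moved both ways in Mi-346, with P2ry12 at 46750 against 64898 and 57349 and Csf1r at 61790 against 49197 and 58040. The part of monocytes, neutrophils and border macrophages in the member values was not tested.

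Cd93 had the opposite pattern. It stood at 22941, 30264 and 26327 in endothelial cells, at 318, 333 and 489 in mural cells, at 15.5, 106 and 65.5 in microglia and at 8.01, 11.6 and 4.23 in neural cells. None of these 4 ranges overlapped. Endothelial cells were 69.8-fold above mural cells, 427-fold above microglia (655-fold without Mi-343) and 3332-fold above neural cells. In bulk samples, fewer cells of a type and less RNA per cell cannot be told apart, so the mural and microglial levels of Cd93 may not be read as levels per cell. A list of 6 endothelial markers summed to 133433 to 144277 in endothelial libraries and 6305 to 8082 in mural ones. In microglia the sum was 955 to 1506 and in neural cells 93.0 to 108. The part of endothelial cells in these Cd93 levels was not tested.

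The question whether a member is enriched in a population was tested with limma on log2(normalized count + 1), each population against the mean of the other 3 over 19765 genes, and a gene was called at a Benjamini-Hochberg adjusted p under 0.05 and over 10-fold higher. In microglia 7 of the 8 members were called, beside 8.27% of all genes tested. The differences on the log2 scale were 14.14 ± 0.51 for C1qa (SE, adjusted p = 6.88e-09), 15.66 ± 0.48 for C1qb (2.93e-09), 15.37 ± 0.45 for C1qc (2.48e-09), 10.47 ± 0.58 for C3ar1 (1.34e-07), 10.57 ± 0.69 for C5ar1 (4.55e-07), 11 ± 1.25 for Itgb2 (3.48e-05) and 6.25 ± 1.06 for C3 (0.000629), all by limma. The direction held in 3 of 3 brains for each of them. Where a population had no read the fitted difference depends on the 1 added to each value, so the ratios above are the safer guide. Over the 8 members the median ratio of the microglial mean to the highest other population, with missing populations at the floor of 3 reads, was 463.5, and 2099 without Ec-340, since Itgb2 went from 47.23 to 3557. Cd93 was lower in microglia than in the mean of the others, which includes the endothelial libraries, by 3.16 ± 0.50 (limma, adjusted p = 0.000385), and was the 1 member of 8 called in endothelial cells, at 8.94 ± 0.50 (adjusted p = 3.53e-07), beside 6.28% of all genes. No member was called in mural cells (4.99% of genes) or in neural cells (13.8% of genes).

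Leaving out a brain moved the fitted difference of C3 and of Itgb2, read as a fold, by more than 1.5 times. On the log2 scale C3 gave 7.36 without brain 340 and 5.50 without the brain of Mi-343, with a limma adjusted p of 0.00599 and 0.00595. Itgb2 gave 11.78 without brain 340, where Ec-340 with its 185 reads drops out (adjusted p = 6.16e-05).

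Endothelial and mural cells, which share their kits, differed in 1 of the 8 members at an adjusted p under 0.05, against 27.8% of all genes. Several of the 8 could hardly be called here. C1qa, C1qb and C1qc held 1 read each over the endothelial libraries and 0 over the mural ones, and C5ar1 held 0 and 22. They passed the filter through their microglia values, so the count of 1 does not show that these populations are alike. Cd93 was higher in endothelial cells by 6.14 ± 0.61 (limma, adjusted p = 3.23e-05), and was called by edgeR and DESeq2 on the recovered reads too. Itgb2 differed by 3.65 ± 1.53 (adjusted p = 0.101) and C3 by -2.42 ± 1.30 (0.193), neither past the limma threshold, and C3ar1 by -0.09 ± 0.71 (0.963). On the recovered reads edgeR called Itgb2 as well (10.03, adjusted p = 0.0311) and DESeq2 called C3 (-3.62, adjusted p = 0.0361). The Itgb2 difference fell to 1.30 by limma without brain 340. The C3ar1 value turned to 0.96 without the brain of Mu-343 (adjusted p = 0.463), so its sign rests on that brain, in which the mural library held the highest C3ar1 value outside microglia.

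Levels of different genes can be set side by side only per length, here as normalized counts per kilobase of exon. In the microglia libraries C1qb led with 58930 ± 3772 (SD, n = 3), ahead of C1qc at 24143 ± 592 and C1qa at 23511 ± 2435. C1qc and C1qa could not be ordered, since C1qc was higher in 2 of the 3 brains and their ranges overlapped. C3ar1 followed at 4289 ± 749, then Itgb2 at 1706 ± 253, Itgam at 947 ± 373 and C5ar1 at 798.5 ± 281. Itgam exceeded C5ar1 in 3 of 3 brains, yet their ranges overlapped. C3 came far behind at 98.3 ± 50.2 and Cd93 last at 9.31 ± 6.76. The C1q chains thus exceeded C3, the protein on which their pathway acts, by more than 2 orders of magnitude per length.

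**Figure D2:**
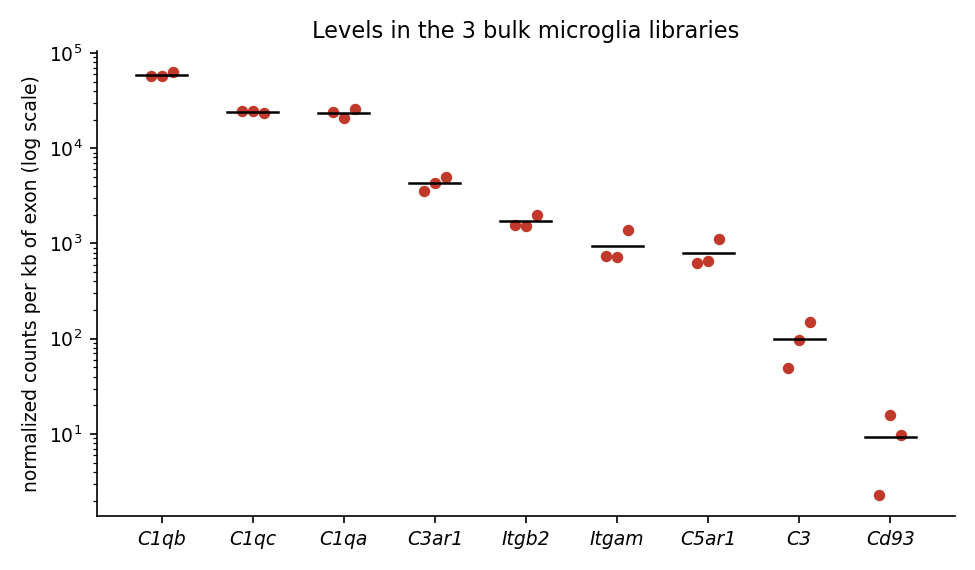
Normalized counts per kilobase of exon in the 3 microglia libraries for each member, on a log axis, in the order of the means, with 1 point per library and a line at the mean. C1qb leads at a mean of 58930 and C3 and Cd93 trail at 98.3 and 9.31.

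The share of each chain in the C1q total was steady. Of the C1q normalized counts in microglia, C1qa made up 18.1% ± 1.26, C1qb 47.4% ± 1.32 and C1qc 34.5% ± 2.14 (SD, n = 3). Per kilobase the shares were 22.02%, 55.3% and 22.7%. The 3 plates of single cells, where each transcript is counted once from its 3′ end, gave 15.2% ± 2.94, 53.5% ± 2.53 and 31.3% ± 0.932. The order C1qb, C1qc, C1qa held in each of these 6 samples, before any division by length. The C1q protein holds its chains in equal number, and the transcripts did not stand at that ratio in either readout.

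Over the 12 bulk libraries the genes with the profile most like a member were found by Pearson's r of log2(normalized count + 1), which here is set by the 4 populations and is given without a test. For the mean of the C1q chains these were Clec4a2, Ly9 and Clec5a, each at 0.999, and 142 genes lay above 0.99. C5ar1 was followed by Ptafr (0.997), Cryba4 (0.997) and Cybb (0.992). C3, less even among brains, was followed by Tmem119 at 0.967, Scpep1 at 0.961 and Ebi3 at 0.953. Cd93 was followed by Bambi (0.995), Emp1 (0.981) and Gchfr (0.979), and for it 1 gene lay above 0.99.

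The rest of the complement system was followed with a list of 54 other complement genes, of which 38 passed the filter of a mean of at least 10. Microglia accounted for 8, among them C2, C5ar2, Cfb, Fcna, Fcnb, Itgal and Itgax, which is 21.1% of the 38 beside 8.27% of all genes. At an adjusted p under 0.05 of any size, 13 of the 38 genes were higher in microglia beside 23.4% of all genes, 7 lower beside 22.3%, and 18 not called, with a median log2 difference of 0.21 beside -0.02 over all genes tested. Itgax, the α chain of complement receptor 4, stood at 578 ± 98.5 in microglia with no read elsewhere (limma, 9.16 on the log2 scale, adjusted p = 8.92e-09). C5ar2, the second C5a receptor, stood at 703 ± 291.5 (9.05, adjusted p = 1.66e-07). Itgal, an integrin chain that pairs with ITGB2, and Fcna, a ficolin of the lectin pathway, differed by 8.27 and 7.95, Itgal by 7.61 without the brain of Mi-346.

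Endothelial cells held 3 of the list, 7.89% of the 38, a share near the 6.28% of all genes. Cfi, the protease factor I that cleaves C3b, stood at 430 ± 118 (limma, 8.51, adjusted p = 1.21e-07), Cd59a, a membrane inhibitor of the terminal complex, at 431 ± 33.4 (4.92, 0.00207) and Thbd, thrombomodulin, at 1722 ± 440 (4.36, 1.38e-05). In these libraries 6 erythroid markers, all with reads, summed to 12168 to 32942, against 8484 to 11347 in neural cells and at most 1969 in any microglia or mural library, and their part in the endothelial values was not tested. Mural cells held 4, 10.5% beside 4.99%. Vtn, vitronectin, which binds the terminal complex and which is also a mural marker, stood at 51130 ± 6650 (limma, 11.39, adjusted p = 1.76e-06). C1s1, the protease of the C1 complex, stood at 177 ± 28.6 (6.25, 0.000692) and Colec12, a scavenger receptor with a collectin domain, at 3537 ± 571 (4.52, 1.3e-05). Serping1, the C1 inhibitor, stood at 620 ± 323 in mural cells (4.97, 0.0188) and was called in neural cells too, but lost its mural call without the brain of Mu-343 (5.43, adjusted p = 0.0748) and without that of Mu-346 (4.07, adjusted p = 0.182). C1s1 gave 6.98 without the brain of Mu-343. In the mural libraries 5 fibroblast markers summed to 5640 to 7754, against at most 236 in any library of the other populations, and 6 neural markers to 33442 to 60710, against 5790 to 15922 in microglia and endothelial cells and 118925 to 129437 in neural cells. All of these markers had reads in mural libraries, and their part in the mural values was not tested.

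Neural cells held 9 of the list, 23.7% beside 13.8% of genes, and the kit limits how these may be read. They were C4a, Csmd1, Csmd2, Csmd3, Masp1, Serping1, Sez6, Sez6l and Sez6l2, of which the Csmd and Sez6 genes encode membrane proteins with complement control domains. Serping1 stood at 437 ± 3.10 in neural cells against 620 ± 323 in mural cells, so its call does not place neural above mural cells. Sez6 stood at 10275 ± 774 (limma, 9.69, adjusted p = 1.34e-06), Sez6l at 4545 ± 183 (9.60, 7.38e-05) and Sez6l2 at 2315 ± 31.7 (7.80, 0.00073). Masp1, a protease of the lectin pathway, stood at 1677 ± 58.3 (7.12, 0.00135) and Csmd2 at 1116 ± 181 (6.75, 5.08e-05). Among these Masp1 moved most when a brain was left out, to 5.85 without that of N-343 and 8.06 without that of N-346, with Sez6l at 8.98 to 10.71 and Sez6l2 at 7.17 to 8.49.

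In the wild-type single cells the pattern could be followed cell by cell. Cells with more than 1500 transcripts numbered 128 in the microglia gate, 225 in the endothelial gate, 210 in the mural gate and 123 in the neural gate, with median depths of 10761, 6408, 6885 and 7717 transcripts. No 2 of the 1591 cells kept over all 6 plates, knockout plates included, had identical values. Of the 128 microglia-gate cells 125 carried at least 5 of 10 microglia markers, none of which is a complement gene. The 3 plates held 64, 58 and 6 of these cells, so plate 3 is thin.

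C1q was found in nearly every microglia-gate cell. C1qb was seen in 98.4% of them (exact 95% interval 94.5% to 99.8%), C1qc in 96.1% (91.1% to 98.7%) and C1qa in 91.4% (85.1% to 95.6%). After thinning each cell to 1500 transcripts the shares were 96.1%, 90.6% and 64.8%. C3ar1 was seen in 95.3% (90.1% to 98.3%, thinned 74.2%). The receptors and integrins at lower levels were seen in fewer cells: Itgam in 77.3% (thinned 36.7%), Itgb2 in 59.4% (17.97%) and C5ar1 in 42.2% (9.38%). C3 was seen in only 7 of the 128 cells, 5.47% (2.23% to 10.9%). These shares fall with thinning, so for C5ar1 and Itgb2 they are set by depth as well as by the cells, and the intervals cover counting error only.

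Levels per plate are given as CPM, a gene's transcripts scaled to the sum over all genes of the gate's cells. The microglia gate held 3268 ± 124 of C1qb (SD, n = 3 plates), 1914 ± 88.3 of C1qc, 932 ± 185 of C1qa and 835 ± 331 of C3ar1. C3ar1 read 1033 and 1019 on plates 1 and 2 and 453 on plate 3. C5ar1 read 94.7, 57.5 and 0 in the same order, its 0 resting on 6 cells. Itgam stood at 341 ± 55.1, Itgb2 at 104.4 ± 44.3 and C3 at 5.60 ± 5.45. As in the bulk libraries C1qb and C1qc stood above C3ar1, and C3 came last among the members that were highest in microglia. C1qa, above C3ar1 in the bulk libraries, read 726 and 984 on plates 1 and 2, below C3ar1 there, and 1085 on plate 3 with its 6 cells. The integrin chains did not keep their order, since Itgb2 per kilobase was above Itgam in the bulk means while Itgam in CPM was above Itgb2 on 3 of 3 plates.

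Transcripts were summed within each plate and gate and tested by edgeR's quasi-likelihood method over 9281 genes, each gate against the mean of the other 3. Of the 8 members 6 passed its filter, C3 and C5ar1 being too low. In the microglia gate 5 of the 6 were called over 10-fold higher, beside 4.61% of all genes. The log2 differences were 8.88 for C1qa (edgeR adjusted p = 5.17e-28), 7.04 for C1qb (1.25e-25), 7.49 for C1qc (6.01e-27), 7.21 for C3ar1 (6.56e-26) and 6.62 for Itgb2 (5.58e-21), each in the same direction on 3 of 3 plates. C3ar1 and Itgb2 moved most with the plates, to 8.54 and 7.56 without plate 3 and to 6.61 and 5.98 without plate 2. C5ar1 could not be tested in that fit, yet in summed transcripts it was at least 40.9-fold higher in the microglia gate than in the endothelial gate, where none was found. C3 was 3.11-fold above the mural gate (exact 95% counting interval 0.922 to 13.4), a difference not detectable at this depth.

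Cd93 was again endothelial. It was found in 89.8% of endothelial-gate cells (exact 95% interval 85.1% to 93.4%, thinned 78.2%) at 1107 ± 553 CPM per plate (SD, n = 3), and edgeR called it there at 6.99 on the log2 scale (adjusted p = 7.59e-27), as 1 of 6 members tested beside 3.02% of genes. In the microglia gate it was found in 10.2% of cells, in the mural gate in 5.71% and in the neural gate in 6.504%, at 9.49, 9.67 and 8.29 CPM. The exact intervals of these shares overlapped (5.52% to 16.7%, 2.99% to 9.77% and 2.85% to 12.4%). The mural level, above the microglial one in every brain of the bulk libraries, was near it here.

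**Figure D3:**
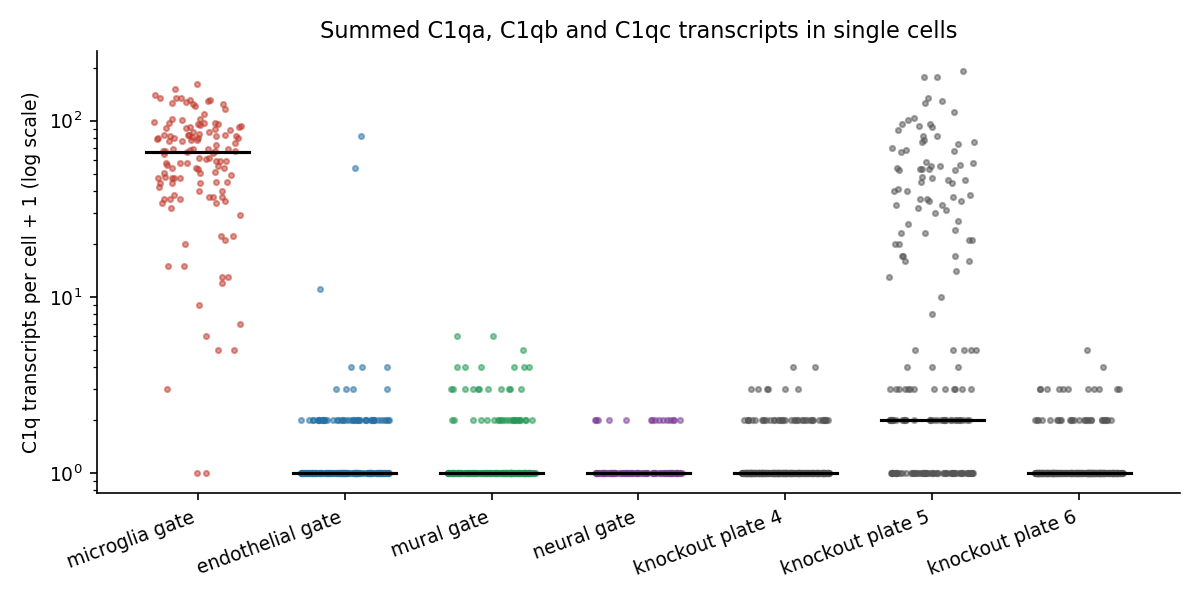
Summed transcripts of C1qa, C1qb and C1qc in each cell of the 4 wild-type gates and of knockout plates 4, 5 and 6, plus 1 on a log axis, with 1 point per cell and a line at the median. Microglia-gate cells centre on a median of 65.7, all but 3 cells of the other gates lie below 10, plate 5 holds both kinds, and no cell of plates 4 and 6 exceeds 4.001.

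Most microglia-gate cells carried C1q at many copies. The sum of the 3 chains had a median of 65.7 transcripts (0 to 159), and 120 of 128 cells had 10 or more. All 3 chains were found in 117 cells, and 2 cells had none. Over the 128 cells Spearman's rho was 0.833 between C1qb and C1qc, 0.775 between C1qa and C1qc and 0.703 between C1qa and C1qb. Depth is shared by all genes of a cell, and C1qb rose with the cell's total at 0.706. Divided by that total, the 3 values were 0.573, 0.659 and 0.495, while C3ar1 gave 0.198 with C1qa, 0.0272 with C1qb and 0.221 with C1qc. The highest value of a chain with any other member was 0.378, for C1qa and Itgam.

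Among the microglia-gate cells 4 carried 2 or more monocyte and neutrophil markers. In those cells C1qa and C1qc were found in 1 of 4 each and the C1q sum had a median of 4.00, against 66.2 in the other 124, while Itgam and Itgb2 were found in 4 of 4. Cells with a transcript of Mrc1, a border macrophage marker, numbered 47 and had 3295 CPM of C1qb against 3343 in the 81 without. C3 was found in 0 of those 47, which allows a share of cells with a transcript of up to 7.55% (exact upper bound), and in 7 of the 81. At so few transcripts this says nothing of whether the 47 cells express C3.

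C1q transcripts outside the microglia gate were few, and their place was uneven. C1qb was seen in 17.8% of endothelial-gate cells, 17.6% of mural-gate cells and 8.13% of neural-gate cells, and C1qb in CPM was 45.5-fold lower in the endothelial, 90.0-fold lower in the mural and 319-fold lower in the neural gate. In the endothelial gate 3 cells, all on plate 1, carried at least 5 microglia markers and held 69.8% of the gate's 205.5 C1q transcripts. Without them the gate fell from 123 to 37.8 CPM, and the log2 difference of C1qa between the microglia gate and the others rose to 9.76 (edgeR, adjusted p = 4.51e-30). Of the 3 cells 1 had 9 microglia markers together with 5 of 6 endothelial markers, while the others had none of the latter. A further 52 endothelial-gate cells, 23.4% of the rest, carried C1q in small numbers.

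In the mural gate C1q went with the library. Mural cells in the 2 libraries that also held microglia-gate cells carried C1q in 72.5% of 51 cells (exact 95% interval 58.3% to 84.1%) at 182 CPM. In the 3 libraries without such cells it was 3.77% of 159 cells (1.40% to 8.03%) at 5.17 CPM. Median depth over these cells was 6916 and 6882, with library medians of 6822 and 6936 in the first and of 5418, 8387 and 6941 in the second set, and no mural cell had more than 5.002 C1q transcripts. Neural-gate cells gave 28.6% of 14 in the shared library and 10.1% of 109 in the others. No library of endothelial-gate cells held microglia-gate cells, and there 24.4% carried C1q. The source of these transcripts was not tested.

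Of the 54 other complement genes 13 could be tested in single cells. C5ar2 was 5.95 higher on the log2 scale in the microglia gate (edgeR, adjusted p = 1.53e-09), and Thbd was 4.58 higher in the endothelial gate (8.61e-10).

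Knockout plate 5 is described by its values only, because its wells carry no gate, it is a single plate, and genotype, plate and population cannot be told apart. Kat8, the targeted gene, was 6.89 to 12.8 CPM in its 4 libraries (median 10.2) and 0 to 28.2 CPM in the 11 wild-type libraries (median 17.8). A tag from the 3′ end need not lie in the deleted part, so this checks nothing. The plate gave 195 cells of 768 wells with a median of 8032 transcripts. Their number of microglia markers had 2 separate peaks, with 121 cells at 4 or fewer and 74 at 5 or more, and only 2 and 6 cells at 4 and 5. This limit was set after the data were seen.

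**Figure D4:**
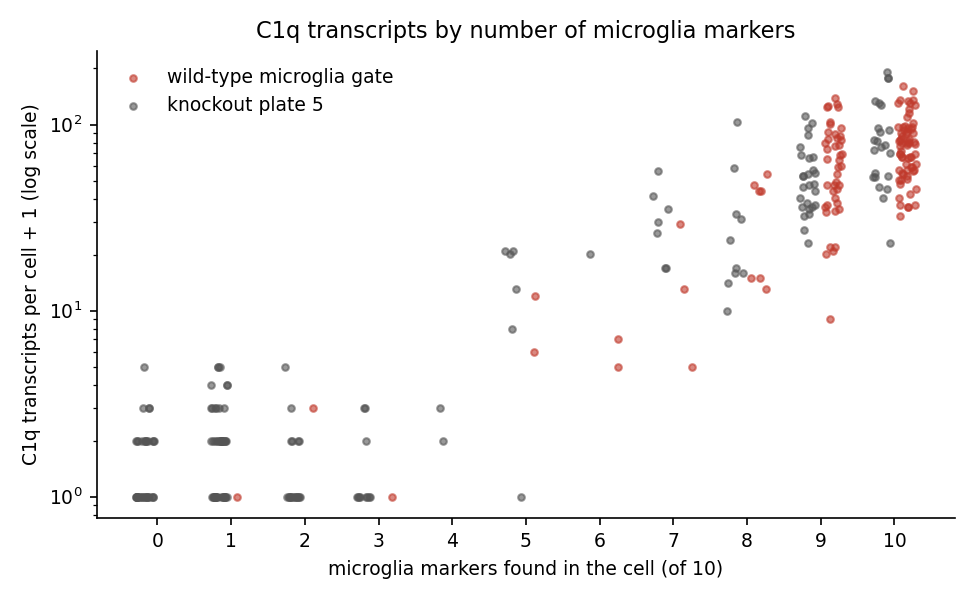
C1q transcripts per cell plus 1, on a log axis, against the number of the 10 microglia markers found in the cell, with 1 point per cell of the wild-type microglia gate and of knockout plate 5. In both sets cells with 9 or 10 markers carry the most C1q, with medians of 68.2 and 54.2 transcripts, and plate 5 cells with few markers carry little.

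Cells of plate 5 with 5 or more markers carried all 9 members. C1qa stood at 884 CPM against 868 in the wild-type cells with 5 or more markers, C1qb at 2679 against 3354 and C1qc at 1791 against 1966. The chain shares on plate 5 were 16.3%, 50.4% and 33.3%, of which only that of C1qa lay within the range of the wild-type plates (12.1% to 17.9%), the others lying 1 to 2 points outside theirs. C3ar1 stood at 837 against 1011, C5ar1 at 58.9 against 74.4, C3 at 6.55 against 8.10 and Cd93 at 9.17 against 9.58. Across the 4 libraries of the plate, in the cells with 5 or more markers, C1qb ran from 2452 to 3143 CPM, below the 3144 to 3392 of the whole microglia gate on the wild-type plates, and C3ar1 from 748 to 1077, which overlapped the 453 to 1033 there.

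The chains of complement receptor 3 stood lower on plate 5, whose wells carry no gate. For the wild-type sort the study's text, though not the well labels, refers to CD11b, the product of Itgam and partner of ITGB2. Itgam was at 135 CPM against 312.5 in the wild-type cells, and was found in 48.6% of cells (exact 95% interval 36.9% to 60.6%) against 78.4% (70.2% to 85.3%). Thinned to 1500 transcripts these shares were 17.6% and 36.8%. Itgb2 was at 68.1 CPM against 123, in 41.9% of cells against 60.0%. Itgam ran from 86.7 to 177 CPM over the 4 libraries, all of them below the 284 to 394 of the whole microglia gate on the wild-type plates, while Itgb2 ran from 25.4 to 177 and overlapped the 59.1 to 148 there. The cells also differed in other lists: 6 border macrophage markers summed to 1669 CPM on plate 5 and to 159 in the wild-type gate, 5 megakaryocyte markers to 496 and 12.5, and 10 microglia markers to 7488 and 10610, with Mrc1 at 686 against 131 and P2ry12 at 399 against 1087. The gene Pf4 is in both the border macrophage and the megakaryocyte list, so their sums are not independent. The part of these markers in the receptor values was not tested.

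**Figure D5:**
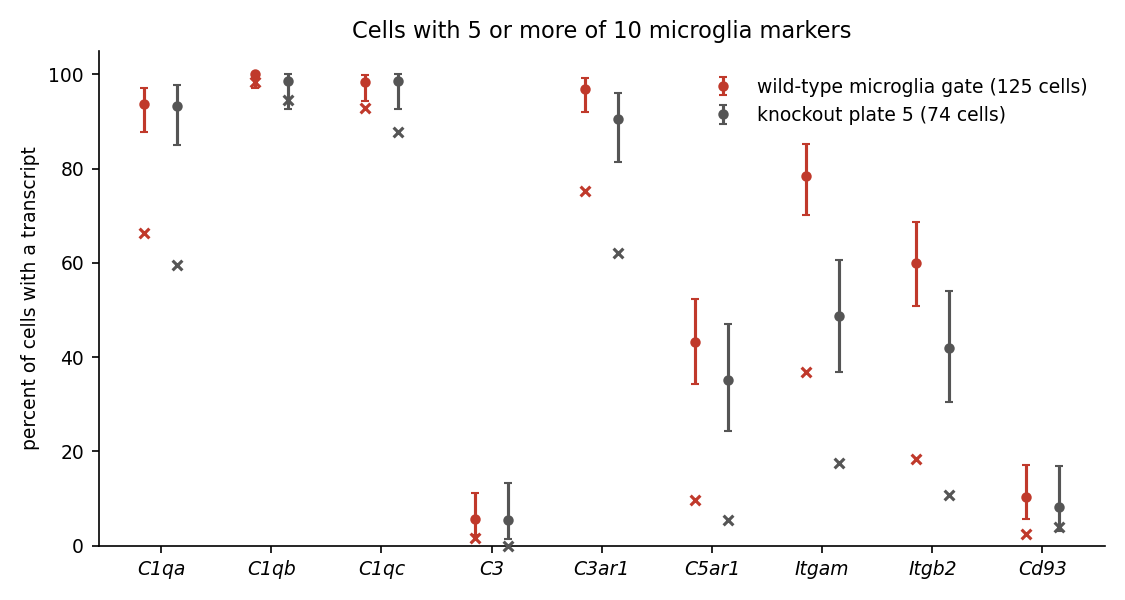
Percent of cells with at least 1 transcript of each member in the wild-type microglia gate and on knockout plate 5, for cells with 5 or more microglia markers. Dots show the share with its exact 95% interval and crosses the share after thinning to 1500 transcripts, and the Itgam dots lie at 78.4% and 48.6%.

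Plate 5 cells with 4 or fewer microglia markers carried neural transcripts, with 6 neural markers at 4727 CPM. C1qb was seen in 37.2% of these 121 cells at 62.0 CPM and C1qa in 3.31% at 5.17 CPM. Every library of the plate also held cells with 5 or more markers. All 9 members were seen on the plate, and over its 195 cells C1qb was found in 60.5%, C1qc in 47.2%, C3ar1 in 39.5%, C1qa in 37.4%, Itgam in 21.0%, Itgb2 in 19.5%, C5ar1 in 14.4%, Cd93 in 5.64% and C3 in 3.08%.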

How the data were processed

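Bulk populations were sorted from E14.5 brains. Neural RNA was extracted and made into libraries with other kits than the rest. The authors deposited the bulk libraries as normalized counts, a signal in which each value is a whole number of reads times 1 factor per library: of 123969 low values 100% came out whole within 0.01. Reads on genes numbered 17638358 to 98414914 per library. Symbols were found for 53274 of the 53465 genes. The submitters' processing notes name BWA 0.6.2-r126, STAR, featureCounts, DESeq2 and mm10, without a role for each. The single-cell tables were deposited by the authors with expected counts of transcripts, corrected for identifiers drawn more than once, and 100% of 4428973 values followed that formula within 0.01. Neither unit restores molecules missed in capture, so low genes are found in too few cells.

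On the scale of log2(normalized count + 1), bulk values were tested by limma 3.58.1 (R 4.3.3), for genes with a mean of at least 10, over all 12 libraries, two-sided. Cells with more than 1500 transcripts were summed into 12 sums per plate and gate, rounded and tested with edgeR 4.0.16 (TMM, filterByExpr). DESeq2 1.42.0 served as an alternative. Shares have exact (Clopper-Pearson) 95% intervals. Python 3.11.15, numpy 2.4.6, pandas 2.3.3 and scipy 1.17.1 did the rest. The fits were tested on simulated data with known changes. Nothing in the labels says that plates come from different brains, so p-values over plates measure the spread between plates. No doublet caller was run. The wells of the library titled P3_11 were read from the well table as number 12 of plate 3.

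A shared number in the library names was read as 1 brain, which the labels do not state. The deviations of such libraries from their population means correlated at -0.054 to 0.0801, so the fits had no block.

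The members and lists were chosen with earlier results of these data known. Named were all 9 members, up to 5 genes per population with the largest difference among called genes of the complement list, and for the C1q mean, C3, C5ar1 and Cd93 the 3 genes most like them; 1 gene that this rule names is not reported here. A planned test of the C1q chain shares between microglia and the other bulk libraries was not made, since 4 of those 9 libraries held no C1q read. Knockout plates 4 and 6 enter only the check for identical cells, the plot of C1q per cell and 1 value of the closing section.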

Additional observations from a re-analysis of the deposited data

Results flagged for a closer look

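C1q in the endothelial gate stood apart in 1 library. The library titled P1_3 held 410.5 CPM of C1q in its endothelial-gate cells, while the 5 other libraries of that gate ran from 0 to 119.8, a gap of 0.708 of the whole range. Of its 28 cells there, 2 carried 5 or more microglia markers. In all 20 groups of libraries were examined in this way and 1 was marked, and chance marks about 1 in 20.

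On knockout plate 6, which enters no comparison above, Cd93 was found in 79.71% of cells (exact lower bound 75.11%), above the upper bound of 12.41% in the wild-type neural gate. The wild-type endothelial gate stood at 89.78% (85.06% to 93.41%).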

How the results depend on the processing

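Counts of called genes stayed within 1.5 times of the reported ones in 98 of 101 alternatives. The exceptions were 5 other complement genes in microglia with a filter of a mean of at least 50, and 2 members that differ between endothelial and mural cells with edgeR (Cd93 and Itgb2) and again 2 with DESeq2 (Cd93 and C3) on the recovered reads. Members called in microglia numbered 7 with the replicate block for brain and 5 in single cells with the block for plate, and the block changed no count by more than 1.5 times. In single cells without the filter on low counts 7 of the 8 members were called in the microglia gate, where C3 held 11 transcripts in all. The difference of C3ar1 between endothelial and mural cells ran from -1.077 without brain 340 to 0.957 without the brain of Mu-343, which reversed it, from -0.086 with all brains. DESeq2 gave no adjusted p for Itgb2, Cd59a, Serping1, Sez6l and Sez6l2, and such rows were left out. Without TMM the median over all genes in the microglia gate was -0.28 in place of -0.03, and after quantile normalization that of neural cells was -0.16 in place of 0.09. Alternatives added after the data were seen left out the library titled P3_11, the endothelial-gate cells with 5 or more microglia markers, or Ec-340 from the median ratio of microglia to the highest other population, which moved it from 463.5 to 2099. Each library was also left out of the ratios of means of C3, C3ar1 and Cd93, and this moved 2 of them by more than 1.5 times, C3ar1 over mural cells to 495.1 without Mu-343 and Cd93 over microglia to 655.2 without Mi-343.

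Per kilobase of exon the chain shares moved to 22.02% for C1qa, 55.27% for C1qb and 22.71% for C1qc. Thinned to 1500 transcripts, the shares of all plate 5 cells moved to 22.56% for C1qa, 42.05% for C1qb, 36.41% for C1qc, 1.026% for C3, 23.59% for C3ar1, 3.077% for C5ar1, 7.692% for Itgam and 5.641% for Itgb2. In the microglia gate thinning lowered the share of C5ar1 from 42.19% to 9.375% and that of Cd93 from 10.16% to 2.344%, and depth per cell limits both.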
